A study of Mus musculus with 24 samples.

Results

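Cells recognise foreign or misplaced nucleic acids with a small set of proteins, and 10 genes of that system are described here: the RNA sensors Ifih1, Ddx58, Dhx58 and Tlr3, the adaptor Mavs, the kinase Tbk1, the transcription factor Irf3, the DNA-sensing adaptor Tmem173, the DNA exonuclease Trex1 and the DNA sensor Aim2. They were taken by symbol as rows of the deposited gene tables, and 10 of 10 were found among 35976 genes. Values are expected counts scaled to sequencing depth (CPM, counts-per-million) unless stated otherwise. The question put to them was whether sensors and adaptors move with the interferon-stimulated genes of cells lacking Sun1, whose product sits in the inner nuclear membrane and takes part in coupling the nucleus to the cytoskeleton.

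All libraries derive from CT26, a mouse colon cancer line that grows in BALB/c mice. The knockout cells carry the genotype Sun1 knockout and come from 1 line, so loss of Sun1 and other properties of that line cannot be told apart. The control cells have the genotype Wildtype and come from 2 lines, control line 1 and control line 2. Cells of each line were sequenced after culture, with 1 library per line. Whole subcutaneous tumors were taken from the right flank of BALB/c mice at day 14 after injection, 7 from knockout cells and 8 from control line 1. Tumor cells were also isolated with a mouse tumor cell kit from such day 14 tumors, giving 2 libraries for each of the 3 lines. The labels do not say whether replicates came from separate animals, so p-values measure the spread between these libraries.

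Double-stranded RNA in the cytosol is bound by the helicases MDA5 (Ifih1) and RIG-I (Ddx58), which signal through Mavs on mitochondria. LGP2 (Dhx58) is a related helicase that lacks the signalling domains and modulates the other two, while Tlr3 detects double-stranded RNA in endosomes. DNA in the cytosol is detected by cGAS, which signals through STING (Tmem173), and by Aim2, which assembles an inflammasome. Both the Mavs and the STING routes use Tbk1 to phosphorylate Irf3, which drives type I interferon, and Trex1 degrades cytosolic DNA before it is sensed. The helicases are themselves induced by interferon in many cell types.

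The interferon-stimulated response element is a DNA site found in promoters of many genes induced by interferon. Its core, GAAA followed by any 2 bases and GAAA again, was searched on both strands of RefSeq promoter windows in GRCm38.p6. Each window reached from 250 bases before to 50 bases after an annotated start of a gene. Windows were matched for 8 of 10 members, the others being Dhx58 and Tmem173. The core was present in 2 of the 8, Ifih1 and Ddx58, against 3.44% of 32851 windows of the same table and 47.8% of the 23 matched windows of an interferon-stimulated list used below. The interferon-gamma element TTCNNNGAA was in 0 of 8 member windows and in 8.3% of all windows. The match in Ifih1 lay 33 to 42 bases after the start and that in Ddx58 3 to 12 bases after it, on the other strand. The 2 matches are shown because these helicases varied with the interferon-stimulated genes, with the core in capitals. Beside them stand bases of the Tlr3, Mavs and Aim2 windows, which held no match and have no capitals. The single Tlr3 window and the single Aim2 window lie inside the gene spans given below. The outermost starts of Tlr3 and Aim2 were therefore not searched.
Ifih1, chr2:62646206-62646235, minus strand: gagaagagaatcGAAACAGAAAccgatctg
Ddx58, chr4:40239804-40239833, minus strand: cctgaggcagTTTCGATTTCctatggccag
Tlr3, chr8:45410381-45410450, minus strand: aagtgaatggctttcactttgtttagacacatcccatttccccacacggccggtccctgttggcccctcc
Mavs, chr2:131233963-131234062, plus strand: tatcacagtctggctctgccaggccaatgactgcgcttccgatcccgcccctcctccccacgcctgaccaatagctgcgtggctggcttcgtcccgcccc
Aim2, chr1:173420471-173420570, plus strand: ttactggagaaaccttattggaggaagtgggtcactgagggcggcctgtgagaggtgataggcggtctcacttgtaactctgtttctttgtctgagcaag
The Ifih1 and Ddx58 stretches reach into the transcribed start of the gene, and the Mavs stretch ends just before the gene's start. The Tlr3 and Aim2 stretches lie inside their genes, clear of annotated exons. A match of letters is a description and not evidence of binding.

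Library totals ran from 14140769 to 24651279 expected counts, and every member had at least 64 expected counts in every library. Sun1 itself was measured at 50.5 to 64.8 CPM in knockout tumors against 169 to 192 CPM in control tumors, and at 50.9 to 55.5 CPM against 165 to 214 CPM in purified cells. In culture it was 33.7 CPM in the knockout line and 122 and 110 CPM in control lines 1 and 2, so each knockout library was below each control library of its setting. Summed over 14 leukocyte markers, the purified libraries held 16.0 to 30.3 CPM against 653 to 2290 CPM in whole tumors. Summed over 7 stromal markers they held 238 to 269 CPM for the knockout. The sums were 622 to 928 CPM for control line 1 and 170 to 187 CPM for control line 2. By mean CPM the matrix gene Dcn was the highest of these markers in control line 1, and Pdgfrb was the highest in the knockout and in control line 2. Of the epithelial markers, Cdh1 and Epcam were listed at 0 in all 3 cultured lines, and Krt18 was at 0.592 CPM in the cultured knockout line against 69.5 and 119 CPM in the control lines, while Krt20 was at 112 CPM against 98.4 and 100 CPM.

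Compared per transcript length, as the deposited transcripts-per-million (TPM), the members were of similar abundance. Median TPM over the 24 libraries ran from 15.6 for Tlr3 and 19.1 for Dhx58 through 21.2 for Aim2, 22.2 for Trex1, 25.2 for Mavs, 28.1 for Ifih1 and 29.6 for Ddx58 to 34.1 for Irf3 and 42.3 for Tmem173, with Tbk1 beside Dhx58 at the lower end. Neighbours in this order overlapped over the libraries. The cells therefore held transcripts of the RNA route (sensors, adaptor, kinase and factor) and of the DNA route in every setting. The cGAS gene, listed as Mb21d1, was also present, with group means of 22.7 to 40.3 CPM.

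**Figure D1:**
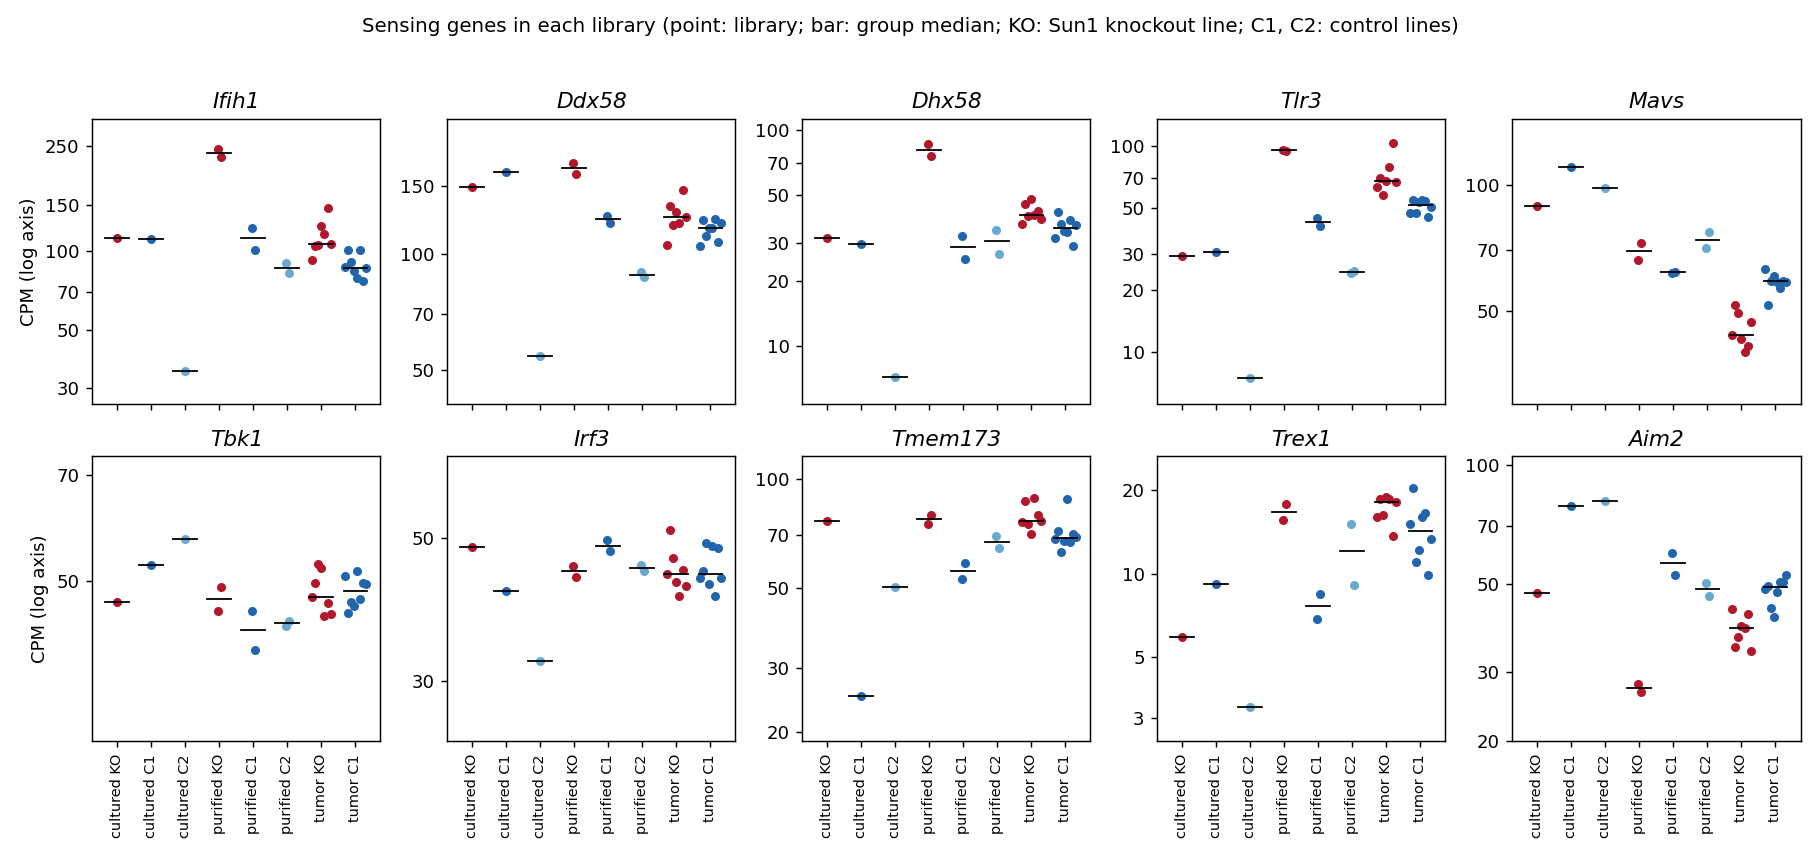
Each panel plots 1 member gene, with CPM on a log axis and the 8 groups of libraries along the x axis (KO, Sun1 knockout line; C1 and C2, control lines 1 and 2). Points are libraries and bars are group medians; purified knockout cells stand above purified control cells for Ifih1, Ddx58, Dhx58 and Tlr3 and below them for Aim2, while Tbk1 and Irf3 lie close together in tumors and purified cells.

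In tumor cells purified from day 14 tumors, the RNA sensors Ifih1, Dhx58 and Tlr3 rose in the knockout and the DNA sensor Aim2 fell, while the shared signalling genes Mavs, Tbk1 and Irf3 stayed within 0.13 of 0 on the log2 scale and did not pass the test. Thus 3 of 10 members were higher and 1 lower by edgeR's quasi-likelihood test at an adjusted p under 0.05. Of all genes tested, 2.26% were higher and 2.29% lower. The median log2 fold change of the members was 0.50, against -0.015 for all genes. The comparison set 2 knockout libraries against 4 control libraries of 2 lines.

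Ifih1 (chr2:62595618-62646255), the sensor of long double-stranded RNA, was at 244 and 228 CPM in the 2 knockout libraries. It was at 122 and 101 CPM in control line 1 and at 90.1 and 82.4 CPM in control line 2. Each knockout library was thus above every control library, and the log2 fold change was 1.26 ± 0.15 (SE; edgeR adjusted p = 0.00229), a 2.4-fold rise.

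Dhx58 (chr11:100694884-100704271), the helicase without signalling domains, was at 85.8 and 75.2 CPM in the knockout. Control line 1 had 32.4 and 25.4 CPM and control line 2 had 34.5 and 26.6 CPM, so the 2 control lines overlapped and both lay well below. Its log2 rise of 1.44 ± 0.15 (SE; edgeR adjusted p = 0.0011) had the smallest p among the members in this setting. Ifih1 and Dhx58 passed in each of the 13 alternative analyses of this comparison.

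Tlr3 (chr8:45395665-45411075), the endosomal receptor, was at 95.4 and 94.5 CPM in the knockout, at 44.9 and 41.0 CPM in control line 1 and at 24.1 and 24.6 CPM in control line 2. The 3 lines formed 3 separate levels, with the control lines also apart from each other. The log2 fold change was 1.51 ± 0.25 (SE; edgeR adjusted p = 0.0159). With knockout replicate 1 left out the adjusted p was 0.116, and with replicate 2 left out it was 0.159, so this call needs both knockout libraries.

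Ddx58 (chr4:40203777-40239825), the sensor of short double-stranded RNA with triphosphate ends, was ordered as Tlr3 was, at 172 and 162 CPM in the knockout, 126 and 121 CPM in control line 1 and 89.5 and 87.3 CPM in control line 2. The groups did not overlap, yet its log2 fold change of 0.67 ± 0.16 (SE) missed the threshold with an edgeR adjusted p of 0.0509. The spread between the control lines enters that error. Against control line 1 alone Ddx58 was higher by 0.45 (edgeR adjusted p = 0.00342), and against control line 2 alone by 0.93 (edgeR adjusted p = 0.000236). The authors' deposited table calls Ddx58 as well, with an adjusted p of 0.00663.

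Among the downstream genes, Mavs (chr2:131234063-131248025) was at 66.1 and 72.8 CPM in the knockout, inside the range of 61.8 to 77.1 CPM of the control libraries, with a log2 fold change of 0.04 ± 0.13 (SE). Tbk1 (chr10:121546455-121586794) was at 45.5 and 49.0 CPM against 40.1 to 45.5 CPM, and Irf3 (chr7:44997648-45002848) at 45.2 and 43.6 CPM against 44.4 to 49.6 CPM. Their log2 fold changes were 0.13 ± 0.11 and -0.07 ± 0.11 (SE), with edgeR adjusted p of 0.524 and 0.752. The genes through which the sensors signal therefore had knockout and control levels that overlapped or touched, whereas the sensors stood apart.

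On the DNA side, Tmem173, on chromosome 18, was at 75.2 and 79.4 CPM in the knockout against 52.9 to 69.3 CPM in the control libraries, which is 0.34 ± 0.13 on the log2 scale (SE; edgeR adjusted p = 0.163). Trex1 (chr9:109057932-109059723) was at 15.6 and 17.9 CPM against 6.85 and 8.47 CPM in control line 1 and 15.1 and 9.10 CPM in control line 2, or 0.76 ± 0.28 as log2 (SE; edgeR adjusted p = 0.16). Neither passed, although every knockout library was above every control library. Against control line 1 alone both passed, with edgeR adjusted p of 0.00432 for Tmem173 and 0.000901 for Trex1, and against control line 2 alone neither did. Counting groups that did not overlap, 6 of 10 members were above all control libraries and Aim2 below them, against 16.5% and 18.1% of all genes.

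Aim2 (chr1:173349547-173466040), whose protein binds cytosolic DNA and recruits the inflammasome adaptor, was at 27.9 and 26.6 CPM in the knockout. Control line 1 had 60.0 and 52.8 CPM and control line 2 had 50.3 and 46.6 CPM. Its direction was opposite to that of the RNA sensors: the log2 fold change was -0.93 ± 0.13 (SE; edgeR adjusted p = 0.00525). The adjusted p was 0.076 without knockout replicate 1 and 0.127 without replicate 2.

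Beside these values, the 14 leukocyte markers summed to at most 22.6 CPM in purified knockout cells. The sums were 27.9 to 30.3 CPM in control line 1 and 16.0 to 25.0 CPM in control line 2. Itgb2 was the highest of these markers, at means of 16.1, 13.4 and 8.91 CPM in the same order. It was at 7.07 to 12.8 CPM in the cultured lines as well. Of 10 tested leukocyte markers 9 had log2 fold changes below 0 and 0 passed, with a median of -1.44. The 6 dendritic cell markers summed to 11.7 to 15.8 CPM in purified knockout cells. They summed to 8.55 to 12.7 CPM in control line 1 and 13.5 to 14.8 CPM in control line 2. Flt3 and Batf3 were at 0 in the knockout and in control line 1, and Batf3 at 0 in control line 2. Zbtb46 alone had means of 13.2, 10.1 and 13.6 CPM in these groups. It was at 5.08 to 6.97 CPM in the cultured lines, so these sums do not stand for dendritic cells alone. The stromal sum of the knockout lay between those of the control lines. The sum of 3 muscle markers was higher in the knockout, at 1.88 to 25.7 CPM against 0.182 to 0.843 CPM, and the part of these marker lists in the result was not tested.

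**Figure D2:**
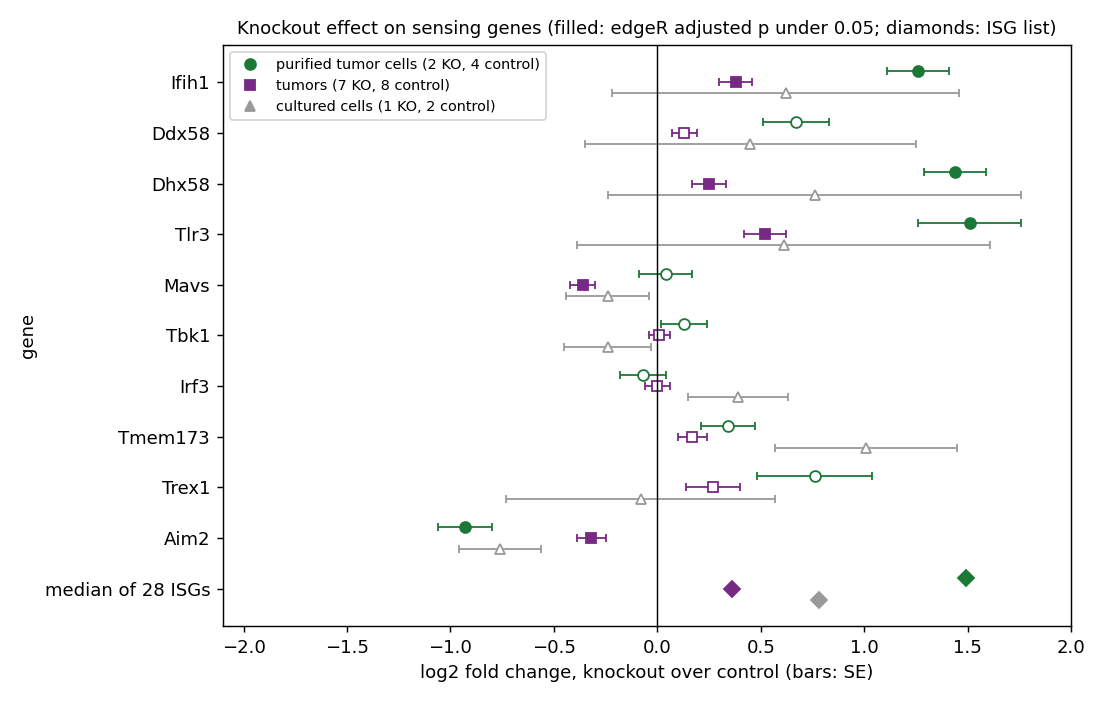
The x axis is the log2 fold change of knockout over control with its SE, and each row is 1 member gene, with the median of 28 interferon-stimulated genes (ISGs) as diamonds in the last row. Filled symbols passed edgeR's adjusted p under 0.05; the purified values of Ifih1, Dhx58 and Tlr3 lie at 1.26 to 1.51, near the ISG median of 1.49, while those of Mavs, Tbk1 and Irf3 lie near 0.

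The interferon pattern was read from 28 interferon-stimulated genes, none of them a member, among them Stat2, Mx1, Oas2 and Isg15. In purified cells 25 of 28 rose and 0 fell, with a median log2 fold change of 1.49, against 2.26% of all genes higher. Stat2, part of the interferon-activated transcription complex, rose by 1.67 ± 0.10 (SE; edgeR adjusted p = 0.000116), and the antiviral GTPase Mx2 by 1.85 ± 0.24 (SE; edgeR adjusted p = 0.00389). The log2 fold changes of Ifih1, Dhx58 and Tlr3 were of the size of that median, those of Ddx58 and Trex1 were about midway between it and 0, and those of the adaptor, kinase and factor were near 0. The sensors and the interferon-stimulated genes come from the same libraries and are no independent evidence of each other.

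Other genes of the same pathways were read from lists of partners. Of 17 tested partners of RNA sensing, 3 rose and 1 fell in purified knockout cells: Irf7, the interferon-inducible relative of Irf3, rose by 1.99 ± 0.15 (SE; edgeR adjusted p = 0.000264), and Eif2ak2, the RNA-activated kinase PKR, by 1.02 ± 0.11 (SE; edgeR adjusted p = 0.00122). The 1 that fell was Pqbp1, by 1.03 on the log2 scale (edgeR adjusted p = 0.00592). It was counted here and not with the partners of DNA sensing, although it is a cofactor of cGAS in some settings. Irf7 mean levels were 644 CPM in the knockout against 175 and 151 CPM in the control lines, in contrast to its relative Irf3.

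Of 13 tested partners of DNA sensing, 3 rose and 0 fell, including Zbp1, a sensor of Z-form nucleic acid, at 1.17 ± 0.19 (log2, SE; edgeR adjusted p = 0.0105). The cGAS gene Mb21d1 had a log2 fold change of 0.40 and did not pass (edgeR adjusted p = 0.111). Of 10 tested genes that edit or degrade nucleic acids, 3 rose and 0 fell, among them the RNA editor Adar at 0.86 ± 0.11 (SE; edgeR adjusted p = 0.00363) and the mitochondrial RNA nuclease Pnpt1 at 0.62 ± 0.11 (SE; edgeR adjusted p = 0.0139).

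The products of the pathway were sparse. Of 10 interferon, chemokine and receptor genes listed as outputs, 4 could be tested; the chemokines Cxcl10 and Ccl5 rose in purified knockout cells by 1.58 ± 0.28 and 2.23 ± 0.24 (SE; edgeR adjusted p = 0.021 and 0.00127). The type I interferon gene Ifnb1 reached at most 20 counts in any library and Ifna4 at most 6, and Ifna1, Ifna2, Ifnl2 and Ifnl3 were at 0 in all 24 libraries. Mean Ifnb1 levels were 0.515 CPM in knockout and 0.169 CPM in control tumors, 0.403 CPM in purified knockout cells against 0.0 and 0.155 CPM in the control lines, and 0.246 CPM against 0.11 and 0.0 CPM in culture. These genes were below the filter on low counts of the knockout comparisons and were not tested there. The receptor genes Ifnar1 and Ifnar2 had log2 fold changes of -0.31 and 0.18 and did not pass.

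In whole tumors, Ifih1, Dhx58 and Tlr3 again rose in the knockout and Aim2 again fell, each by less than in purified cells, and Mavs fell as well. By edgeR's quasi-likelihood test 3 of 10 members were higher and 2 lower, against 18.1% and 19.0% of all genes, so the share of members called was not far from the background. The median log2 fold change was 0.15 for the members and 0.009 for all genes. The groups were 7 knockout tumors and 8 tumors of control line 1.

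Ifih1 was at 92.2 to 146 CPM in knockout tumors (median 107) and at 76.9 to 101 CPM in control tumors (median 86.2). The groups overlapped at the lower end of the knockout range, and the log2 fold change was 0.38 ± 0.08 (SE; edgeR adjusted p = 0.00177). Dhx58 ran from 36.7 to 47.9 CPM (median 40.5) against 29.0 to 41.9 CPM (median 35.1), with a log2 rise of 0.25 ± 0.08 (SE; edgeR adjusted p = 0.012).

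Tlr3 was at 57.7 to 103 CPM in knockout tumors (median 67.2) and at 45.4 to 54.3 CPM in control tumors (median 51.9). It was the single member whose knockout tumors were all above the control tumors, a pattern found in 3.12% of all genes. Its log2 fold change was 0.52 ± 0.10 (SE; edgeR adjusted p = 0.000426), and 1 tumor, replicate 6, supplied the highest value. Ddx58, by contrast, ran from 106 to 147 CPM (median 125) against 105 to 123 CPM (median 117), and its log2 fold change of 0.13 ± 0.06 (SE) did not pass (edgeR adjusted p = 0.114).

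Mavs was at 40.0 to 51.7 CPM in knockout tumors (median 43.8) and at 51.8 to 63.1 CPM in control tumors (median 58.9). All knockout tumors were below all control tumors, as were those of 6.08% of all genes. The log2 fold change was -0.36 ± 0.06 (SE; edgeR adjusted p = 0.000173), and it was this adaptor, whose purified levels overlapped, that had the smallest p of the members in tumors.

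Aim2 was at 33.8 to 43.2 CPM in knockout tumors (median 38.8) and at 41.2 to 52.8 CPM in control tumors (median 49.0), a log2 difference of -0.32 ± 0.07 (SE; edgeR adjusted p = 0.0011). The groups overlapped between 41.2 and 43.2 CPM. Tbk1 ran from 44.8 to 52.7 CPM against 45.2 to 51.5 CPM, and Irf3 from 40.7 to 51.6 CPM against 40.6 to 49.1 CPM. For both signalling genes the 2 groups covered nearly the same range, with log2 fold changes of 0.01 ± 0.05 and -0.00 ± 0.06 (SE). Tmem173 at 70.5 to 88.6 CPM against 62.8 to 87.8 CPM and Trex1 at 13.6 to 18.9 CPM against 9.89 to 20.4 CPM did not pass (edgeR adjusted p = 0.0533 and 0.101).

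Whole tumors hold host cells, and in bulk samples fewer cells of a type and less RNA per cell cannot be told apart. The 14 leukocyte markers summed to 1150 to 2290 CPM in knockout tumors against 653 to 1480 CPM in control tumors, and 12 of 14 rose. The 6 dendritic cell markers summed to 16.5 to 29.2 CPM against 14.2 to 24.9 CPM, and 2 of 6 rose. By log2 fold change 4 of the 6 were above 0 and 2 below. Xcr1 was at a mean of 5.86 against 1.79 CPM, and Zbtb46 at 11.8 against 13.5 CPM. Stromal markers summed to 329 to 502 CPM against 583 to 670 CPM, with 1 of 7 risen and 1 fallen, and muscle markers to 1.05 to 66.3 CPM against 0.183 to 7.06 CPM, with 2 of 3 risen. With the mean leukocyte level as a covariate, Ifih1, Tlr3 and Aim2 were still called, at log2 fold changes of 0.51, 0.56 and -0.39 (edgeR adjusted p = 0.0122, 0.0213 and 0.0183), whereas Dhx58 and Mavs were not, at 0.30 and -0.29 (edgeR adjusted p = 0.0998 and 0.0553). With that covariate Tmem173 and Trex1 had values of -0.03 and -0.06. Without it Dhx58 and Mavs were at 0.25 and -0.36, so the value of Dhx58 was no smaller with it. The mean log2 leukocyte level was 5.91 to 6.77 in knockout and 4.95 to 6.04 in control tumors. It thus largely followed genotype, and a call lost with it does not show that leukocyte content made the difference. The part of the dendritic, stromal and muscle markers in these results was not tested.

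The partner lists in tumors were mixed, and their counts stand beside 18.1% of all genes higher and 19.0% lower. Of 18 RNA sensing partners, with Pqbp1 again counted among them, 4 rose and 5 fell. Irf7 was at 0.67 ± 0.10 and Eif2ak2 at 0.33 ± 0.07 (log2, SE, with edgeR adjusted p = 3.75e-05 and 0.00075). Pqbp1 was at -0.61 and Tnfaip3, an inhibitor of inflammatory signalling, at -0.27 (edgeR adjusted p = 2.44e-06 and 0.0022). Of 14 DNA sensing partners 5 rose and 2 fell: the cGAS gene Mb21d1 rose by 0.26 (edgeR adjusted p = 0.00822) and Ifi204, an interferon-inducible DNA-binding protein, by 0.44 (edgeR adjusted p = 0.000838), while Trim56 and Copa, regulators of the STING route, fell by 0.65 and 0.23 on the log2 scale (edgeR adjusted p = 0.00295 and 0.00546). Of 28 interferon-stimulated genes 24 rose and 0 fell, with a median of 0.36.

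Genes that partner Aim2 and Tlr3 were counted against the same shares. Of 10 inflammasome genes 3 rose and 0 fell: Pycard, the adaptor that Aim2 recruits, by 0.99 (edgeR adjusted p = 8.62e-06), the cytokine Il18 by 0.87 (edgeR adjusted p = 0.00295) and the protease Casp1 by 0.31 (edgeR adjusted p = 0.00642). Pycard was at a mean of 7.56 CPM in control tumors, but at or below 0.142 CPM in each purified group. The inflammasome adaptor was therefore hardly measured in the cells in which Aim2 fell. Of 8 genes of the other endosomal receptors 5 rose and 0 fell in tumors, among them Unc93b1, the chaperone that Tlr3 needs, by 0.90 ± 0.21 (SE; edgeR adjusted p = 0.005), which had 121 CPM in knockout tumors and 0.474 CPM in purified knockout cells.

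A direct test of tumor effect minus purified effect, fitted over all 24 libraries, called 6 of 10 members and 11.9% of all genes. The difference was -0.89 ± 0.15 for Ifih1, -0.55 ± 0.11 for Ddx58, -1.19 ± 0.15 for Dhx58 and -1.04 ± 0.17 for Tlr3 (log2, SE; edgeR adjusted p = 0.000572, 0.00244, 1.57e-05 and 0.000324), so the knockout effect on these RNA sensors was smaller in whole tumors, although Ddx58 itself passed in neither setting. It was 0.62 ± 0.13 for Aim2 (edgeR adjusted p = 0.0031), whose fall was smaller there, and -0.40 ± 0.11 for Mavs (edgeR adjusted p = 0.0221). Among all genes 4.85% had a higher and 7.06% a lower effect in tumors, and 26 of 28 interferon-stimulated genes had a lower one, with a median of -1.08. With control line 1 alone in the purified arm, the line also used in the tumors, Ddx58 was lost (-0.32, edgeR adjusted p = 0.112). With control line 2 alone Mavs was lost (-0.27, edgeR adjusted p = 0.174), and it was also lost without purified knockout replicate 2 (edgeR adjusted p = 0.158) or control line 2 replicate 1 (edgeR adjusted p = 0.0619).

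In culture no member passed the test. With 1 knockout library against 1 of each control line, edgeR called 0 members in either direction and 0.0% of all genes, and DESeq2's Wald test called 0 members and 44 genes. At an unadjusted p under 0.05 edgeR found 659 genes and 1 member, Aim2. The 28 interferon-stimulated genes had a median log2 fold change of 0.78 and 0 were called.

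For Ifih1, Ddx58, Dhx58 and Tlr3 the cultured control lines differed from each other more than the knockout line differed from control line 1. Ifih1 was at 113 CPM in the knockout line, 111 CPM in control line 1 and 34.8 CPM in control line 2. Ddx58 was at 149, 163 and 54.3 CPM, Dhx58 at 31.5, 29.8 and 7.23 CPM and Tlr3 at 29.2, 30.6 and 7.49 CPM in the same order. For each of these 4 RNA sensors the knockout line was thus within a ratio of 0.917 to 1.06 of control line 1, and control line 1 was 3 to 4.12 times above control line 2. The mean log2 CPM of the interferon-stimulated genes was also lowest in control line 2, at 6.11, 5.95 and 4.12 in the same libraries.

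Of the remaining members, Irf3 and Trex1 were also lowest in control line 2 in culture, and Mavs, Tbk1, Tmem173 and Aim2 were not. Tmem173 was highest in the knockout line at 76.5 CPM, with 25.1 CPM in control line 1 and 50.1 CPM in control line 2. Aim2 was at 47.6 CPM in the knockout line against 78.7 and 81.0 CPM, so it was low beside both control lines, as in the purified cells. Mavs at 88.9, 110 and 98.3 CPM and Tbk1 at 46.8, 52.6 and 57.0 CPM differed little, and Irf3 was at 48.5, 41.3 and 32.2 CPM. Trex1 had the lowest values, at 5.92, 9.16 and 3.30 CPM. Single libraries give no spread for any of these values, so the differences between cultured lines have no replicate check.

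**Figure D3:**
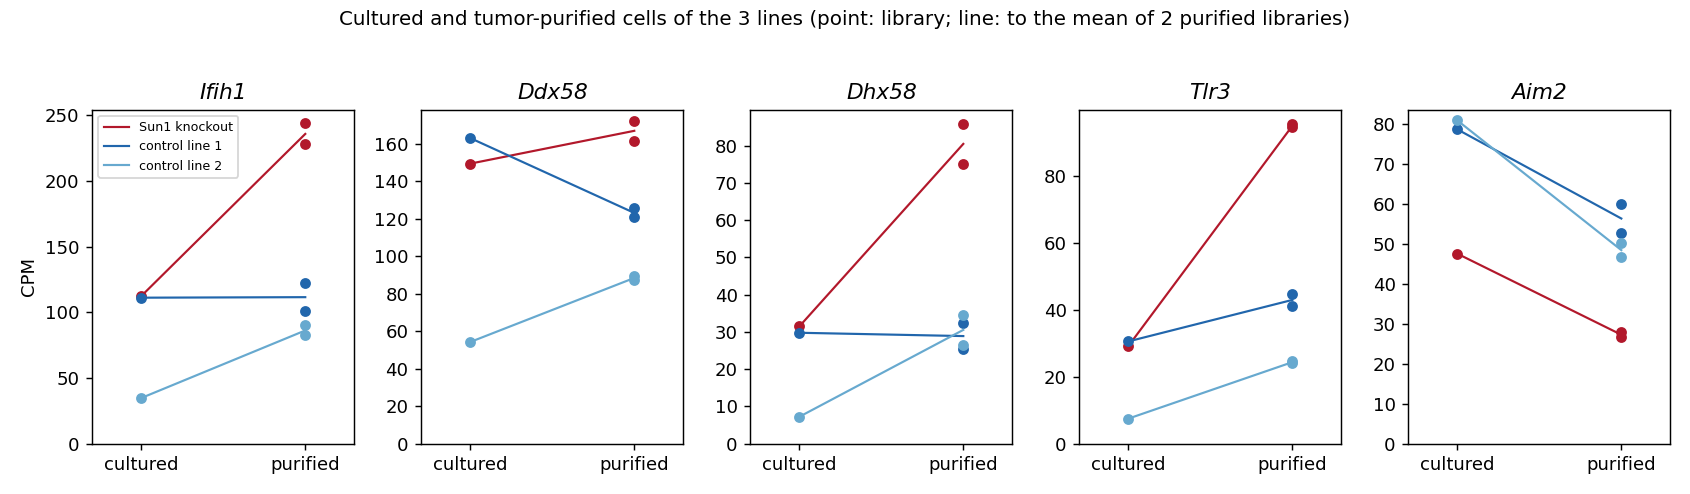
Each panel plots CPM from 0 upward for 1 gene in cultured cells (1 library per line) and purified tumor cells (2 libraries per line), with a line drawn to the mean of the purified libraries. For the 4 RNA sensors knockout and control line 1 lie close together in culture and apart in purified cells. Aim2 is lower in the knockout line in both settings.

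Between culture and purified cells, Ifih1, Tlr3 and Tmem173 rose and Mavs and Aim2 fell when line was taken into account. These were 3 and 2 of 10 members, against 22.1% and 21.4% of all genes. Growth in mice and handling, such as isolation with the kit, cannot be told apart here. Log2 changes were 0.77 ± 0.24 for Ifih1, 1.26 ± 0.22 for Tlr3 and 0.50 ± 0.16 for Tmem173, and -0.53 ± 0.10 for Mavs and -0.66 ± 0.09 for Aim2 (SE; edgeR adjusted p = 0.0343, 0.00194, 0.031, 0.000747 and 7.44e-05). Stromal and leukocyte markers moved with this comparison. Of the tested markers 5 of 5 stromal and 5 of 10 leukocyte ones rose, with median log2 changes of 2.90 and 1.39. The stromal sum was 77.7 to 84.7 CPM in culture against 170 to 928 CPM in purified cells. Pdgfrb alone was at 65.7 to 70.4 CPM in the cultured lines, so the stromal markers do not stand for host cells alone. The part of the stromal sum in the result was not tested. The lines did not move alike: from culture to purified cells the ratio of Ifih1 was 2.1 in the knockout line, 1.0 in control line 1 and 2.48 in control line 2, and that of Dhx58 was 2.56, 0.97 and 4.23. Tlr3 changed by ratios of 3.25, 1.41 and 3.25, and Aim2 by 0.574, 0.717 and 0.599. Tmem173 had ratios of 1.01, 2.21 and 1.33, so its mean hardly moved in the knockout line. Ifih1 was no longer called without either purified knockout library or either library of control line 2 (edgeR adjusted p = 0.0613 to 0.0713), and Tmem173 without control line 2 replicate 1 (edgeR adjusted p = 0.0754). For the 4 RNA sensors control line 2 started low and ended near or below control line 1, and the knockout line started level with control line 1 and ended above both.

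Purified cells of the 2 control lines differed in 2 members, both lower in control line 2, against 7.35% of all genes lower and 5.08% higher. Ddx58 differed by -0.47 ± 0.11 and Tlr3 by -0.81 ± 0.13 (log2, SE; edgeR adjusted p = 0.0172 and 0.00382). Without control line 1 replicate 1 the adjusted p of Ddx58 was 0.111. Of the 28 interferon-stimulated genes 1 was higher and 2 were lower, with a median of -0.06, so the difference in Tlr3 was not one that the list showed at its median. Stromal marker sums also differed between these lines, and their part in the result was not tested.

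Whole tumors against purified cells, with line in the model, gave higher Tmem173 and Trex1 and lower Ifih1, Ddx58, Dhx58 and Mavs. These were 2 and 4 of 10 members, against 34.1% and 31.1% of all genes. Setting and any difference in handling cannot be told apart here either. Tmem173 was higher by 0.19 ± 0.08 and Trex1 by 0.43 ± 0.17, and Ifih1 was lower by -0.71 ± 0.12 and Mavs by -0.35 ± 0.08 (log2, SE; edgeR adjusted p = 0.0398, 0.0291, 1.35e-05 and 0.000756). Tlr3 and Aim2 did not pass, at -0.09 and 0.11. These values average over lines that did not move alike. Mean Dhx58 was 41.6 CPM in knockout tumors against 80.5 CPM in purified knockout cells, but 35.2 against 28.9 CPM for control line 1. In the same order Tlr3 was at 72.3 against 94.9 CPM and 50.7 against 42.9 CPM. Aim2 was at 38.3 against 27.3 CPM and 48.1 against 56.4 CPM, and Trex1 at 17.2 against 16.8 CPM and 14.3 against 7.66 CPM. Ifih1, Ddx58 and Mavs had lower mean CPM in tumors for both lines. Without either purified library of control line 1, Tmem173 (edgeR adjusted p = 0.199 and 0.123) and Trex1 (0.172 and 0.128) were no longer called. Without knockout replicate 1 of the purified cells Ddx58 (edgeR adjusted p = 0.0816) and Dhx58 (0.367) were lost, and Dhx58 also without replicate 2 (0.209). The differences of Ifih1 and Mavs remained called in each of these leave-one-out fits.

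The members' variation from tumor to tumor was also set against the interferon-stimulated genes, within each genotype. In the 7 knockout tumors Ifih1 had Pearson's r = 0.95 (exact two-sided permutation p = 0.00317) and Spearman's rho = 0.75 (exact permutation p = 0.0663) with their mean log2 CPM. Ddx58 had r = 0.96 (exact permutation p = 0.00437) and rho = 0.96 (exact permutation p = 0.00278). After adjustment over 20 relations these Pearson values had p = 0.0437 for each gene by the exact permutation test, and the Spearman values 0.221 and 0.0556. Knockout replicate 6 had the highest interferon-stimulated level, and without the 2 tumors farthest from the median r was 0.67 for Ifih1 and 0.73 for Ddx58 in the 5 left, for which no p was computed, so both relations rest in part on those tumors.

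In the 8 control tumors no relation passed after adjustment. The highest were Dhx58 at r = 0.83 and rho = 0.79 (exact permutation p = 0.0108 and 0.0279, adjusted 0.0721 and 0.14), which was r = 0.94 in 6 tumors, and Tbk1 at r = -0.84 and rho = -0.79 (exact permutation p = 0.0164 and 0.0279, adjusted 0.082 and 0.14). Tlr3 had r = 0.83 in knockout tumors (exact permutation p = 0.0327, adjusted 0.12) and 0.42 without the 2 farthest, and in control tumors 0.43 and 0.84. Without the 2 farthest Tbk1 in control tumors was at -0.63, and Trex1 went from -0.40 to 0.88 in knockout tumors and from 0.33 to 0.87 in control tumors. Mavs, Irf3 and Aim2 lay between -0.66 and 0.05 in both genotypes. Against the leukocyte markers, 20 further relations gave no adjusted p under 0.308 by the exact permutation test.

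**Figure D4:**
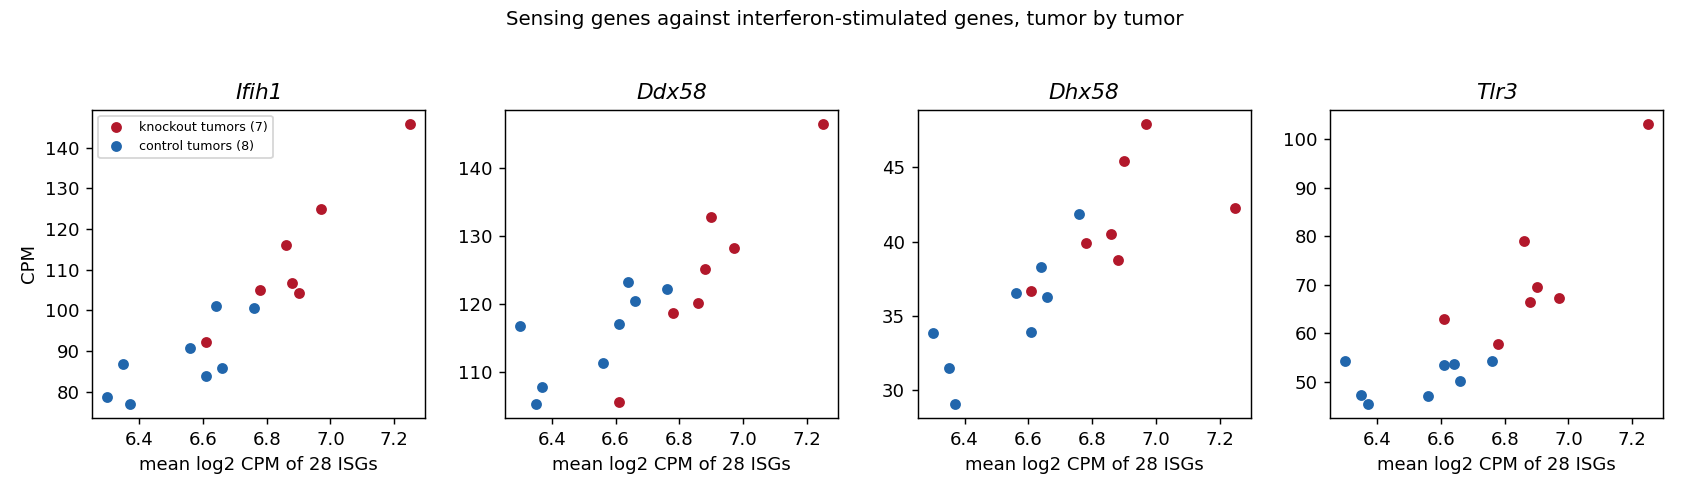
Each point is 1 tumor, with the mean log2 CPM of 28 interferon-stimulated genes on the x axis and the CPM of the named gene on the y axis (red, 7 knockout tumors; blue, 8 control tumors). Ifih1 and Ddx58 increase with the interferon-stimulated genes among the knockout tumors, and 1 knockout tumor at 7.25 on the x axis has the highest Ifih1, Ddx58 and Tlr3.

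Genes with the most similar variation over the 15 tumors, after removal of each genotype's mean, were named for each member as a description without a test. For Ifih1 they were the interferon-stimulated Oas3, Eif2ak2 and Oas1a (r = 0.94, 0.91 and 0.90), for Ddx58 led by Samd9l (0.92) and for Dhx58 by Parp14 (0.84). Tlr3 was closest to Phf14 (0.94), Tmem173 to the interferon-gamma receptor gene Ifngr1 (0.91), Irf3 to Srprb (0.90), Mavs to Gm33938 (0.87), Trex1 to Rom1 (0.85), Tbk1 to Cntrl (0.84) and Aim2 to Cipc (0.81). Among the members themselves the highest values joined RNA sensors. They were 0.74 for Ifih1 with Ddx58, 0.73 for Ddx58 with Tlr3, 0.70 for Ifih1 with Tlr3 and 0.66 for Ddx58 with Dhx58. Ifih1 with Dhx58 was at 0.65, but Dhx58 with Tlr3 only at 0.31, below Dhx58 with Trex1 at 0.57. These tumors share library depth and cell makeup, which such values contain.

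Some members overlap other genes in the annotation: Aim2 overlaps Cadm3, Trex1 a readthrough transcript with Atrip, Ifih1 the transcript Gm39839 and Dhx58 Gm38483. Whether counting used strand is not given in the sources used here, so how reads of these pairs were divided is not known. The readthrough transcript itself was not among the genes counted. The overlap is that of whole gene spans, and overlap of exons was not checked. The authors' deposited comparison tables, in which Ddx58 is called too, have 4 members higher and 1 lower in purified knockout cells, 3 higher and 2 lower in tumors, and 0 in either direction in culture.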

How the data were processed

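RNA enriched for mRNA was sequenced from 24 libraries. Per the submitters' processing notes the tools were FastQC, STAR, RSEM and DESeq2 on mm10; versions and strand settings are not given in the sources used here. The authors deposited RSEM expected counts and TPM per gene, and tables with log2 fold changes and adjusted p-values of their own comparisons; the direction of those tables was set by Sun1.

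Expected counts were rounded to whole numbers and tested with edgeR 4.0.16 in R 4.3.3 (TMM, filterByExpr with a minimum count of 10, robust quasi-likelihood fit, Benjamini-Hochberg over all genes tested, threshold 0.05). Printed CPM use TMM factors over 24 libraries; log2 CPM add a prior count of 2. Settings compared across lines had line as a term. The scripts were tested on simulated data. Genes named were the members and, per list, up to 4 with the smallest p in tumors and up to 2 in purified cells; Mb21d1 and the interferon genes were named after their values were seen. The members and lists were chosen with earlier results of these data known. Alternatives were DESeq2 1.42.0, its size factors, no filter, single control lines, covariates, blocks and left-out libraries.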

Additional observations from a re-analysis of the deposited data

Results flagged for a closer look

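The knockout effect differed between whole tumors and purified cells by the test of the difference itself for 6 members: Ifih1 (-0.89), Ddx58 (-0.55), Dhx58 (-1.19), Mavs (-0.40), Tlr3 (-1.04) and Aim2 (0.62), as log2 values of tumor effect minus purified effect. Tmem173 in control tumor replicate 5 was 87.8 CPM, far above the other 7 control tumors (gap ratio 0.635). It was the single such value in 20 groups checked, and chance gives about 1 in 20. Without that tumor Tmem173 was higher in knockout tumors by 0.23 (edgeR adjusted p = 0.00579).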

How the results depend on the processing

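Ifih1, Tlr3 and Aim2 in tumors, and Ifih1 and Dhx58 in purified cells, were called in every alternative of those comparisons (21 and 13). Each purified group has 2 libraries, 1 knockout line was studied and cultured lines have 1 library each, which limits precision. Where no cause is given, the cause was not tested.

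Genes called in purified cells numbered 282 higher and 286 lower. Together they were 1205 by DESeq2's Wald test, 908 with no filter on low counts, 2477 in one fit over all 24 libraries, 2896 against control line 1 only and 2322 against control line 2 only, and 72 to 540 with a library left out, the lowest counts (108 and 72) without knockout replicates 1 and 2. Members higher there were 6 in the one fit and against control line 1 only and 2 to 4 with a library left out, and members lower 0 to 1. With the leukocyte covariate tumors had 1728 genes called in place of 5107, and 1 member lower; leaving out a tumor gave 4523 to 5158 genes, 3 to 4 members higher and 2 lower.

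In culture, where 0 genes were called, DESeq2 called 44, no filter 95, the one fit 654, control line 1 only 520 and control line 2 only 643; in the last 3 settings 5, 1 and 5 members were higher and 1 lower. No library could be left out of its own fit, which then has no residual degrees of freedom. The difference between tumor and purified effects had 1892 genes, and 667 to 2172 with a library left out (898, 667 and 1143 without purified knockout replicates 1 and 2 and control line 2 replicate 1). Control line 2 over control line 1 had 1508 genes, 2267 and 1 member higher with no filter, and 999 (without control line 1 replicate 1) to 2319 (without control line 2 replicate 2), with 0 to 1 members higher and 1 to 2 lower. Whole tumors over purified cells had 0 members higher with no filter and 0 to 3 higher and 2 to 4 lower with a library left out; purified over cultured cells had 5 higher by DESeq2 and with no filter, and 1 to 4 with a library left out.

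Values that changed sign were uncalled. In tumors these were Irf3 (0.00 with DESeq2 size factors or Wald test, 0.01 with the covariate, -0.04 to 0.02 with a tumor left out), Tbk1 (-0.01 to 0.03 with a tumor left out), Tmem173 (-0.03) and Trex1 (-0.06), both with the covariate. In purified cells it was Mavs (-0.08 against control line 2 only, -0.02 to 0.11 with a library left out). In culture Ddx58 (-0.13) and Tlr3 (-0.07) changed against control line 1 only, and Trex1 in the one fit (0.11) and against control line 2 only (0.85). With a library left out the control lines' Dhx58 ran from -0.11 to 0.28 and Tbk1 from -0.06 to 0.14, and Tlr3 in whole tumors over purified cells from -0.20 to 0.03.

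Replicate numbers did not pair libraries: same-numbered tumors had deviations correlated at -0.209 to 0.323 and purified libraries at -0.151 to 0.00996. With the replicate block 303 genes were called in purified cells, with no change in the calls of members there; in tumors Tmem173 was called (edgeR adjusted p = 0.0289). A crossed pairing of the control lines, added after seeing the data, called 2429 genes and 1 member higher.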
